A study of Mus musculus with 4 samples.

Results

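Itga4, Itga6 and Actn1 were followed in CD4 and CD8 T cells taken from lymph nodes and spleen of 6 to 8 week old mice, with and without the forkhead transcription factor Foxo1. The members are all probe sets that either of the authors' fold change tables names Itga4, Itga6 or Actn1. They are 8 of the 45037 probe sets analysed, 4 for Itga4, 1 for Itga6 and 3 for Actn1, and 3 of the 507 genes that carry a symbol. The 4 groups were Foxo1KO (Foxo1-deficient) CD4 T cells, wild-type CD4 T cells, Foxo1KO CD8 T cells and wild-type CD8 T cells, each on 1 Affymetrix array, and the study set out to find Foxo1 target genes. How Foxo1 was deleted, in which cells, on what strain and from how many pooled mice are details not given in the sources used here.

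Integrins are paired alpha and beta chains that hold a cell to its surroundings. Integrin alpha 4, from Itga4, pairs with beta 1 or beta 7 and binds VCAM, fibronectin and the gut addressin MAdCAM, which guide lymphocytes into tissue. Integrin alpha 6, from Itga6, pairs with beta 1 or beta 4 and binds laminins of basement membranes. Inside the cell, alpha-actinin 1, from Actn1, crosslinks actin filaments and ties integrin beta tails to them. Foxo1 is known in naive T cells for maintaining homing and survival receptors.

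Promoters of the members were sought because their transcripts were lower together in the Foxo1KO arrays of both cell types and the study looked for Foxo1 targets. They come from RefSeq on GRCm38.p6 and run from 250 bases before to 50 after the start of transcription. A window was matched for 2 of the 3 genes, Itga4 and Actn1, and none was found for Itga6. The Itga4 window is chr2:79255176-79255475 on the plus strand, and the Actn1 window is chr12:80260314-80260613 on the minus strand, each printed 5′ to 3′ along the gene. Capitals mark AAACA, the core of forkhead sites, and GGGCGG, the GC box, on either strand (TGTTT and CCGCCC when reversed).
Itga4: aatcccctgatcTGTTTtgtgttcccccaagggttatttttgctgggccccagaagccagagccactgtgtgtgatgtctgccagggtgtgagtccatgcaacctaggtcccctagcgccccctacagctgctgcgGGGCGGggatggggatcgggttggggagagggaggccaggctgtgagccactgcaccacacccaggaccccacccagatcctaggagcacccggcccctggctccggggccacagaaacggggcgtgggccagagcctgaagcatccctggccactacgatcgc
Actn1: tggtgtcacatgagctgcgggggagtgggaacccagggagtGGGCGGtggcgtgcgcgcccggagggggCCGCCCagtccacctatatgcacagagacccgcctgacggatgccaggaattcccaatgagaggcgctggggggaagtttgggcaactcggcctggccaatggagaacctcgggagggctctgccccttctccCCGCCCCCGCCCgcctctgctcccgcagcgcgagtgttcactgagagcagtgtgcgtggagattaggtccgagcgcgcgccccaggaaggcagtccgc
The Itga4 window held 1 forkhead core, 238 bases before the start site, and 1 GC box 114 bases before it. The Actn1 window held no forkhead core and 4 GC boxes, starting 209, 181, 48 and 42 bases before the start site. The longer forkhead consensus GTAAACA was found in neither on either strand, and GTAAACA contains AAACA, so both motifs can mark one place. Of all 32851 promoter windows, 50.5% held AAACA, 3.65% GTAAACA and 35.7% GGGCGG on at least 1 strand. A letter match is a description of the window and no evidence of binding. The GC content was 64.3% for Itga4 and 68.3% for Actn1, beside a median of 52.7% over all windows.

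Values are linear probe set intensities, and anything under 74.9, their median over all arrays and probe sets, counted as not measured. A fold with 1 array below that floor is a bound, written "at least". Each group is 1 array, so a difference between 2 single arrays has no replicate error and no test, and array, mice and group cannot be told apart. The precision is limited by the number of arrays. A gene carries a symbol only if the authors listed it for a change of at least 2-fold, so the Foxo1KO against wild-type values of the members are a description of listed genes. Array medians were 75.7 (Foxo1KO CD4), 77.6 (wild-type CD4), 69.0 (Foxo1KO CD8) and 77.1 (wild-type CD8). All 4 Foxo1 probe sets were lower in the Foxo1KO arrays. The 3 above the floor had 4.91% to 13.5% of the wild-type intensity in CD4 and 17.4% to 26.6% in CD8, and the other was under the floor in both Foxo1KO arrays.

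All 8 member probe sets were lower in Foxo1KO than in wild-type T cells, in CD4 and in CD8 alike. At least 2-fold lower were 7 of 8 in CD4, beside 1.26% of 24070 probe sets compared, and 7 of 8 in CD8, beside 2.04% of 23803. Because the listing used these contrasts, nothing is read from those counts. The median log2 difference of the members was -1.50 in CD4 and -2.13 in CD8, where the median over all compared probe sets was 0.02 in CD4 and -0.003 in CD8. Nothing is read from the count over both cell types at once either, since the listing used both contrasts. There 6 members were at least 2-fold lower, beside 0.462% of 22498 probe sets. The exceptions were Itga6 in CD4 and one Actn1 probe set that fell under the floor in CD8.

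**Figure D1:**
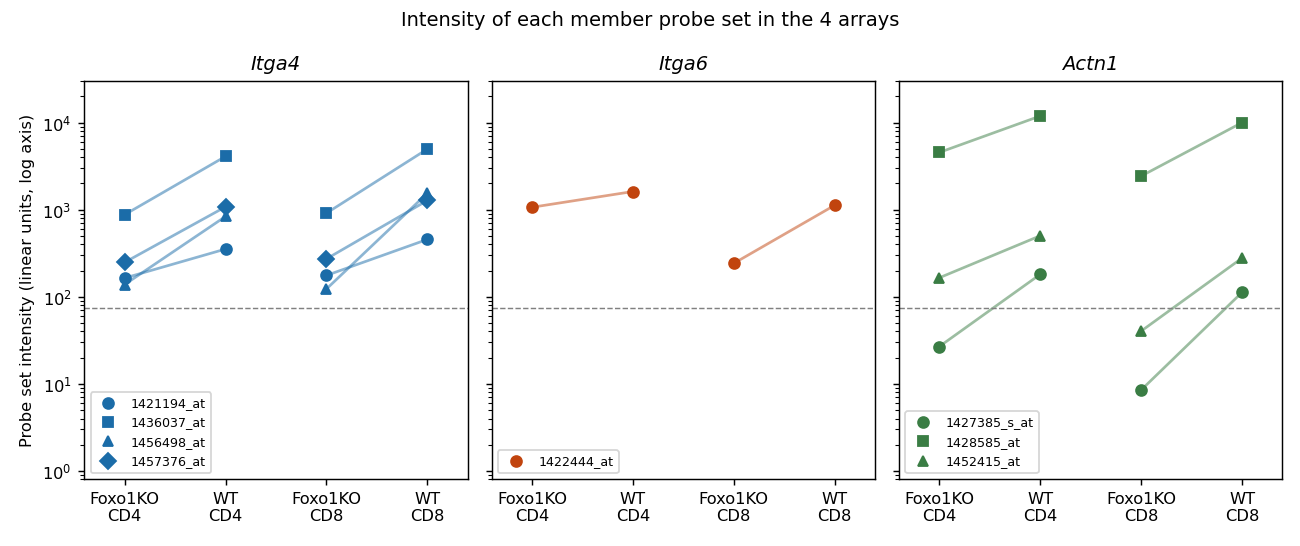
Intensity of each member probe set (log axis, linear units) in the Foxo1KO and wild-type arrays of CD4 and CD8 T cells, 1 array per group. Each symbol is a probe set, lines join the 2 arrays of a cell type, and the dashed line is the floor of 74.9. All 8 probe sets sit lower in the Foxo1KO array of each cell type, and Itga6 lies at 242 in Foxo1KO CD8 and at 1066 in Foxo1KO CD4.

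Itga4 was lower without Foxo1 by a similar factor in CD4 and CD8 T cells at its brightest probe set. That probe set, 1436037_at, had an intensity of 876 in Foxo1KO CD4, against 4094 in wild-type CD4, which is 4.67-fold lower. It had 912 in Foxo1KO CD8, against 4971 in wild-type CD8, which is 5.45-fold lower. The 2 Foxo1KO arrays thus lay within 1.04-fold of each other and both far under the wild-type arrays.

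The other Itga4 probe sets had the same direction with different sizes. Probe set 1457376_at had 248 in Foxo1KO CD4, against 1079 in wild-type CD4, and 272 in Foxo1KO CD8, against 1277 in wild-type CD8 (4.35-fold and 4.69-fold lower). Probe set 1456498_at had 138 in Foxo1KO CD4, against 836 in wild-type CD4, and 123 in Foxo1KO CD8, against 1547 in wild-type CD8 (6.06-fold and 12.6-fold lower). The smallest differences were at 1421194_at, which had 164 in Foxo1KO CD4, against 353 in wild-type CD4, and 176 in Foxo1KO CD8, against 456 in wild-type CD8 (2.15-fold and 2.59-fold lower). At each of the 4 probe sets both Foxo1KO intensities lay under both wild-type ones. The authors listed all 4 for this contrast in both cell types, so nothing is read from that. Over these 4 the log2 difference averaged -2.01 ± 0.64 in CD4 and -2.43 ± 0.94 in CD8 (SD, n = 4 probe sets on the same arrays). The probe sets read the same RNA, so they are not replicates, and their spread exceeded the pooled spread between probe sets of named genes, 0.39 in CD4 and 0.38 in CD8 (SD, 76 genes each). More extreme than the brightest Itga4 probe set on the lower side were 29 of 24070 probe sets compared in CD4 and 28 of 23803 in CD8. It was listed for both contrasts, so nothing is read from these ranks.

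Itga6 was low mainly in Foxo1KO CD8 T cells. Its single named probe set, 1422444_at, had 242 in Foxo1KO CD8, against 1125 in wild-type CD8, which is 4.65-fold lower. In CD4 it had 1066 in the Foxo1KO array, against 1616 in wild-type, which is 1.52-fold lower and under the 2-fold threshold. The authors listed it for CD8 only, so its CD4 value is not one that selected it. Of the probe sets compared, 44 were more extreme on the lower side in CD8, the contrast it was listed for, and 1146 in CD4. The Foxo1KO CD4 and the wild-type CD8 intensities, 1066 and 1125, differed by a log2 value of only 0.08, and the Foxo1KO CD8 array stood apart from the other 3.

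Actn1 was lower without Foxo1 in both cell types, with the larger difference in CD8 at its brightest probe set. Probe set 1428585_at had 4542 in Foxo1KO CD4, against 11902 in wild-type CD4, which is 2.62-fold lower. It had 2431 in Foxo1KO CD8, against 10007 in wild-type CD8, which is 4.12-fold lower. Both Foxo1KO arrays stayed well above the floor, so neither fold is a bound.

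The dimmer Actn1 probe sets reached the floor. Probe set 1452415_at had 165 in Foxo1KO CD4, against 502 in wild-type CD4 (3.04-fold lower), and 40.4 in Foxo1KO CD8, against 279 in wild-type CD8 (at least 3.72-fold lower). Probe set 1427385_s_at, whose suffix marks probes shared between transcripts, had 26.8 in Foxo1KO CD4, against 181 in wild-type CD4 (at least 2.42-fold lower). It had 8.51 in Foxo1KO CD8, against 113 in wild-type CD8 (at least 1.5-fold lower). All 3 probe sets were lower in the Foxo1KO array of either cell type, but for the dimmer ones the size in CD8 is known only as a bound.

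**Figure D2:**
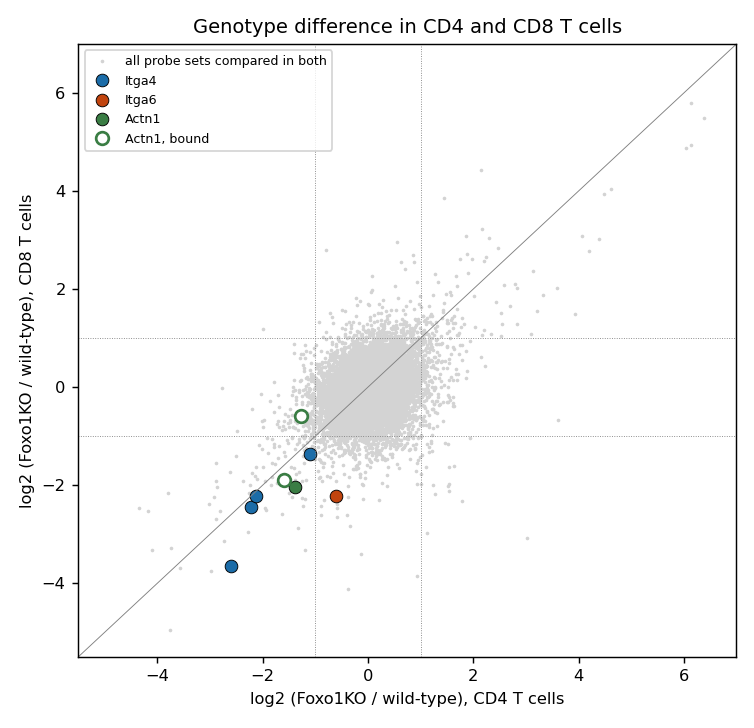
Log2 difference between Foxo1KO and wild-type arrays in CD4 (x axis) and in CD8 T cells (y axis) for all 22498 probe sets compared in both (grey) and the members (coloured, open where a value is a bound), 1 array per group. Dotted lines mark 2-fold and the solid line equal differences. The 4 Itga4 probe sets run down the lower left near that line or under it, while Itga6 sits at -0.60 in CD4 and -2.22 in CD8.

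The genotype difference was set between the cell types by subtracting the CD4 from the CD8 log2 difference. It was negative, that is further down in CD8, for all 6 member probe sets without a bound, between -1.62 and -0.11. Of these, 4 are Itga4 probe sets that read the same RNA. The share over all probe sets was not counted, so nothing is read from the common sign. At the brightest probe sets the difference was -1.62 for Itga6, -0.65 for Actn1 and -0.22 for Itga4. The spread between probe sets of named genes, combined over both cell types, was 0.55 (SD), which Itga6 exceeded at its single probe set. Actn1 exceeded it narrowly, and not with the arrays centred on their medians. Itga4 stayed under it at 3 of 4 probe sets and exceeded it at 1456498_at, with -1.06. That spread covers listed probe sets only and does not measure variation between arrays or mice. Itga6 was listed in CD8 and not in CD4, so its difference is not free of the listing. With 1 array per group the CD8 minus CD4 difference was not tested. The array medians differed between Foxo1KO and wild-type by a log2 value of -0.16 in CD8 and -0.04 in CD4. With each array centred on its median, the differences in CD8 were -2.29 for Itga4, -2.06 for Itga6 and -1.88 for Actn1, and the CD8 minus CD4 values were -0.10, -1.49 and -0.53 in the same order of genes.

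CD8 and CD4 T cells were also compared within each genotype. The listing did not use this contrast itself, but it used the same samples, so the contrast is not free of the listing. These contrasts use the same 4 arrays as the genotype ones, so they restate them and add no independent evidence. In the Foxo1KO arrays Itga6 had 242 in CD8 and 1066 in CD4, which is 4.40-fold lower in CD8. In the wild-type arrays it had 1125 in CD8 and 1616 in CD4, which is 1.44-fold lower in CD8. The Foxo1KO arrays differed more between the cell types than the wild-type arrays did. Of 23637 probe sets compared, 64 were further down than Itga6 in CD8 against CD4 in the Foxo1KO arrays. Itga6 was listed for its low Foxo1KO CD8 value, so nothing is read from this rank.

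Actn1 was lower in CD8 than in CD4 at every probe set measured, in both genotypes. At the brightest probe set it was 1.87-fold lower in CD8 in the Foxo1KO arrays and 1.19-fold lower in the wild-type arrays. At 1452415_at it was at least 2.21-fold lower in CD8 in the Foxo1KO arrays and 1.80-fold lower in the wild-type arrays. The third probe set, 1427385_s_at, was 1.61-fold lower in CD8 in the wild-type arrays, and under the floor in both Foxo1KO arrays.

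Itga4 showed the opposite order in the wild-type arrays. All 4 probe sets were higher in CD8 there, by 1.18-fold to 1.85-fold. In the Foxo1KO arrays 3 of 4 were higher in CD8, by 1.04-fold to 1.10-fold, and 1456498_at was 1.12-fold lower. The mean log2 difference, CD8 minus CD4, was 0.03 ± 0.14 in the Foxo1KO and 0.44 ± 0.30 in the wild-type arrays (SD over 4 probe sets). No Itga4 probe set reached 2-fold between the cell types in either genotype.

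Counted over the members, 2 of 7 were at least 2-fold lower in CD8 than in CD4 in the Foxo1KO arrays, one each of Itga6 and Actn1, beside 2.94% of 23637 probe sets. In the wild-type arrays 0 of 8 were, beside 2.31% of 24371. At least 2-fold higher in CD8 were 0 members in either genotype, beside 1.92% in the Foxo1KO and 2.2% in the wild-type arrays. The listing used the same samples, so nothing is read from these counts.

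**Figure D3:**
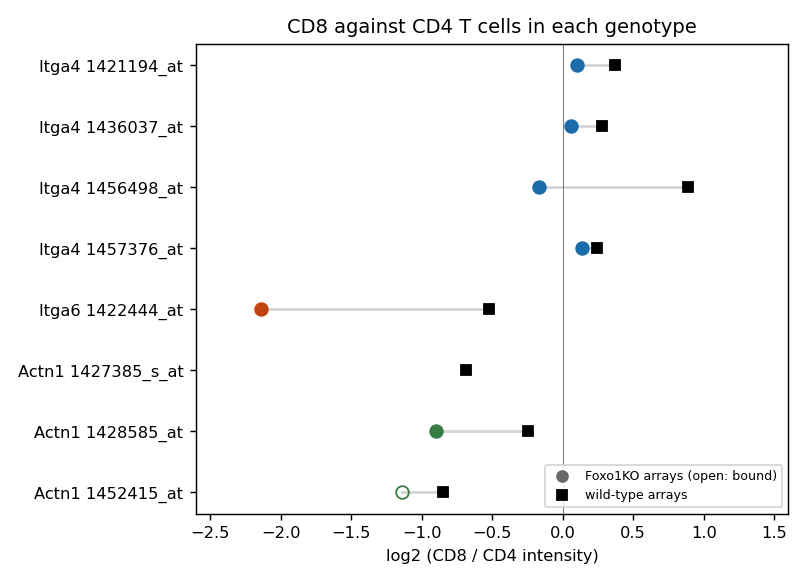
Log2 ratio of CD8 to CD4 intensity for each member probe set in the Foxo1KO arrays (circles, open for a bound) and in the wild-type arrays (black squares), 1 array per group. Itga4 lies above 0 in the wild-type and near 0 in the Foxo1KO arrays, and Itga6 lies at -2.14 in the Foxo1KO and -0.52 in the wild-type arrays. No Foxo1KO ratio is drawn for 1427385_s_at, which was under the floor.

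The order of the 4 arrays was also read off for each probe set. For Itga6 and for 1428585_at and 1452415_at of Actn1 it ran, high to low, wild-type CD4, wild-type CD8, Foxo1KO CD4 and Foxo1KO CD8, the last under the floor for 1452415_at. The third Actn1 probe set has an order only for the wild-type arrays, since both Foxo1KO values were under the floor. For Itga4 it ran wild-type CD8, wild-type CD4, Foxo1KO CD8 and Foxo1KO CD4 at 3 probe sets, with the Foxo1KO arrays exchanged at 1456498_at. Several of these steps were small on the log2 scale. Between the wild-type arrays they were 0.28 and 0.24 for Itga4 at 1436037_at and 1457376_at and 0.25 for the brightest Actn1 probe set, under the pooled spread of 0.33 between probe sets of a gene there (SD, 78 genes). Between the Foxo1KO arrays all 4 Itga4 steps, from 0.06 to 0.17, were under the pooled spread of 0.38 (SD, 81 genes), and so was the 0.08 between wild-type CD8 and Foxo1KO CD4 for Itga6. Neighbours in the order with such steps are not told apart. The pooled spread holds no variation between arrays or mice, so a step above it is not thereby told apart either.

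The CD8 minus CD4 term was tested in a limma fit that adds genotype to it and uses the 4 arrays together. It leaves 1 residual degree of freedom, its error holds any difference between the cell types' genotype effects, and it does not measure the spread between mice. For the members the term is not free of the listing, which used the same samples. At the brightest probe sets the term was -1.33 ± 0.49 for Itga6 (SE, limma adjusted p = 0.383), -0.58 ± 0.24 for Actn1 (limma adjusted p = 0.41) and 0.17 ± 0.16 for Itga4 (limma adjusted p = 0.661). None of the 3 passed the threshold of 0.05, and neither did any of the 25375 probe sets (0%), with 1425 higher and 2198 lower in CD8 at an unadjusted p under 0.05. In simulated data this fit recovered 0% of 100 probe sets changed by a log2 value of 3, so it made no call at that size. With a mean-dependent and robust prior limma called 4.97% of the probe sets, 578 higher and 683 lower in CD8, and in the simulated data it made 44 calls among unchanged ones. Of the members it called 1452415_at of Actn1, at -1.44 ± 0.32 (SE, limma adjusted p = 0.04), for which limma's default prior gave an adjusted p of 0.33. The Foxo1KO CD8 value of this probe set, 40.4, was under the floor and entered that fit as it stood. The authors' deposited table has 116 there, so nothing is read from this call. The brightest probe sets were not called by that fit either, with limma adjusted p of 0.104 for Actn1, 0.293 for Itga6 and 0.52 for Itga4.

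The authors' deposited tables hold other intensities for the same samples, called raw in their header, and list a member in a cell type 14 times. In the authors' deposited table for CD8, Itga6 was 3.62-fold lower, with 317 in Foxo1KO and 1150 in wild-type. In the authors' deposited tables the brightest Itga4 probe set was 5.43-fold lower in CD4 and 4.99-fold in CD8, so that its CD8 minus CD4 difference was 0.12 on the log2 scale and opposite in sign to the value above. The brightest Actn1 probe set was 2.22-fold lower in CD4 and 3.76-fold in CD8 in the authors' deposited tables. The 2 sources gave one direction for all 14 listings, with a median absolute log2 gap of 0.23 and a largest gap of 1.55.

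That largest gap was at 1427385_s_at of Actn1 in CD4. The authors' deposited table has 70.8 in Foxo1KO and 163 in wild-type (2.31-fold lower), where the value table has 26.8 and 181, 6.75-fold lower without the floor. Next was 1452415_at in CD8, with 116 in Foxo1KO and 280 in wild-type in the authors' deposited table (2.41-fold lower), where the value table has 40.4 and 279. Both gaps lie in dim Foxo1KO values, and the wild-type intensities of these pairs were close. Of the listed member ratios in the authors' deposited tables, the one nearest to 0.5 was 0.45, for the brightest Actn1 probe set in CD4. Outside the lists were Itga6 in CD4, with 66.0% of the wild-type intensity in the value table, and 1427385_s_at of Actn1 in CD8, whose Foxo1KO value was under the floor.

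**Figure D4:**
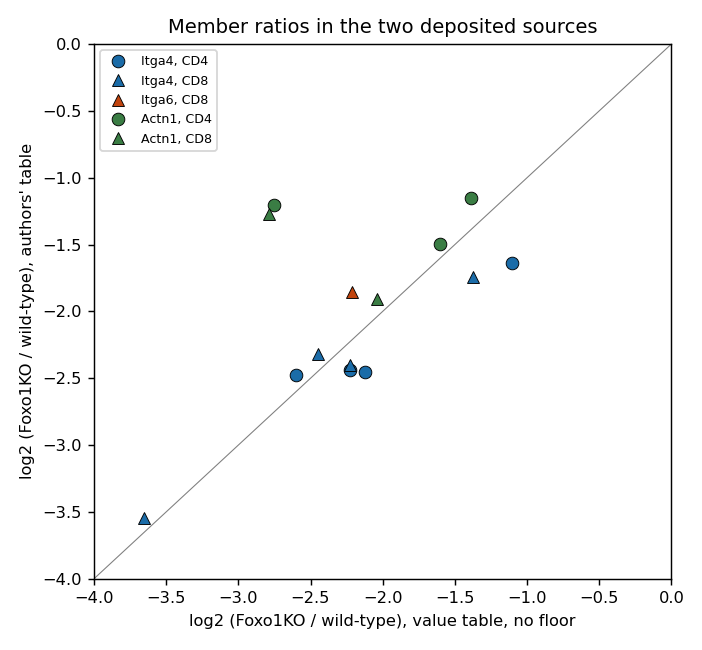
Log2 ratio of Foxo1KO to wild-type in the value table without a floor (x axis) against the ratio in the authors' deposited tables (y axis) for the 14 listings of member probe sets, by gene and cell type. Most points lie near the line of equality, and 2 Actn1 points lie about 1.5 log2 units above it.

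The genes whose 4-array pattern was nearest to each member were sought among the 361 named genes above the floor in all arrays, by the root mean square difference of mean-centred log2 intensities over the 4 arrays. All 361 had been listed for a genotype change, and with 4 arrays the measure is only descriptive. Nearest to Itga4 were Slamf6, a receptor of the SLAM family (0.16), Il7r, the IL-7 receptor alpha chain (0.26), and Foxo1 itself (0.30). Slamf6 had 338 in Foxo1KO CD4, against 1599 in wild-type CD4, and 406 in Foxo1KO CD8, against 1625 in wild-type CD8, which repeats the near-equal difference of Itga4 in both cell types.

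Nearest to Itga6 were the stress kinase gene Map3k5 (0.25), the AMP deaminase gene Ampd3 (0.27) and Cyria (0.28). Map3k5 had 420 in Foxo1KO CD4, against 993 in wild-type CD4, and 123 in Foxo1KO CD8, against 657 in wild-type CD8, again lowest in Foxo1KO CD8. Nearest to Actn1 was Mtss1, a membrane-bending protein gene (0.067), with 966 in Foxo1KO CD4, against 2759 in wild-type CD4, and 579 in Foxo1KO CD8, against 2175 in wild-type CD8. Rflnb (0.18) and the pyrophosphate transporter gene Ank (0.18) followed. The members lay further from each other, at 0.47 for Itga6 and Actn1, 0.50 for Itga4 and Actn1 and 0.95 for Itga4 and Itga6.

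Other genes of integrin function could be followed only where the authors listed them. Of 25 other integrin chains 0 carried a symbol, so the beta partners of alpha 4 and alpha 6 were not analysed here. Of 127 genes in 4 lists, 17 had a symbol. All 17 were listed for a change of at least 2-fold, so their counts are set beside those of the other named genes as well as of all probe sets. In CD4 3 of 15 compared were at least 2-fold lower and 8 at least 2-fold higher, beside 102 lower and 132 higher of 474 other named genes (1.26% lower and 1.5% higher over all probe sets). Their median log2 difference was 1.08, beside 0.34 for the other named genes. In CD8 2 of 17 were lower and 6 higher, beside 150 lower and 139 higher of 481 (2.04% lower and 1.47% higher over all probe sets). The median was 0.54, beside 0.16, with bounds taken at their value. These listed genes went both ways. The members were all lower, but they were chosen with earlier results known, so no contrast with these genes is read.

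Among linkers to actin, Zyx, which encodes zyxin of focal adhesions, had 840 in Foxo1KO CD4, against 1859 in wild-type CD4 (2.21-fold lower). Actn2, the muscle alpha-actinin, was above the floor only in wild-type CD8, with 8.52 in Foxo1KO CD8, against 117 in wild-type CD8 (at least 1.56-fold lower). The myosin gene Myo6 was 6.80-fold lower in CD4, Ahnak 3.10-fold higher in CD4 and Pdlim4 at least 2.67-fold lower in CD8. Of integrin activation genes, Rap1gap2, which switches off the integrin-activating GTPase Rap, had 688 in Foxo1KO CD4, against 96.8 in wild-type CD4, and 1162 in Foxo1KO CD8, against 287 in wild-type CD8 (7.11-fold and 4.04-fold higher). In CD4 the adaptor gene Skap2 was 2.22-fold higher and Rapgef4 2.12-fold lower. Tgm2, at the brightest of its 4 named probe sets, was 84.0-fold higher in CD4 and at least 44.7-fold in CD8. It had 7103 in Foxo1KO CD4, against 84.6 in wild-type CD4, which is close to the floor. In CD8 it had 3350 in Foxo1KO, against 58.0 in wild-type, under the floor.

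Of the homing list, 4 of 7 compared in CD4 and 4 of 8 in CD8 were at least 2-fold higher, with 0 lower in CD4 and 1 lower in CD8, again among genes listed for such a change and beside the shares just given for the other named genes. Ccr9, a receptor for gut homing, was 2.77-fold higher in CD4, Cxcr5 2.27-fold higher in CD4, Cxcr3 2.27-fold in CD4 and 2.74-fold in CD8, and Cxcr4 2.11-fold and 2.13-fold. Cd44, a hyaluronan receptor, was 2.02-fold higher in CD8, and Cdh1, which encodes E-cadherin, at least 5.28-fold higher in CD8. Cxcr6 was 3.83-fold lower in CD8. Icam1, a ligand of the leukocyte integrins, was 1.99-fold higher in CD8.

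**Figure D5:**
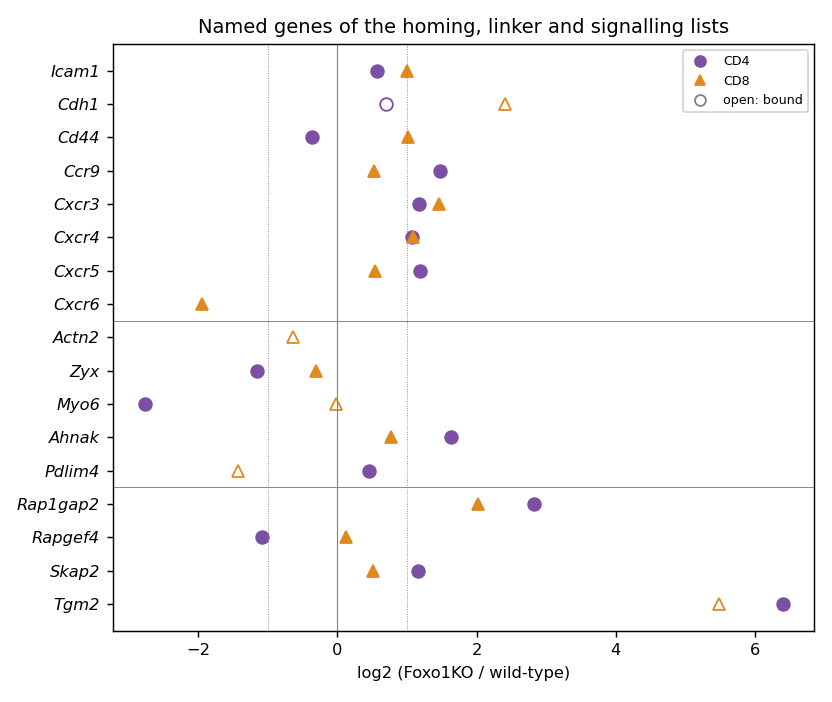
Log2 difference between Foxo1KO and wild-type in CD4 (circles) and CD8 T cells (triangles) for the 17 named genes of the homing, actin linker and integrin signalling lists (separated by lines), open where a value is a bound, 1 array per group. Dotted lines mark 2-fold. Genes of one list lie on both sides of 0.

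Markers of other cells were checked where they had a symbol. None of 8 T cell markers did, so the labelled cell types could not be checked against them. Of 14 B cell and plasma cell markers 6 had one, and their summed intensity was 5978 in Foxo1KO CD4, against 776 in wild-type CD4, and 9768 in Foxo1KO CD8, against 1025 in wild-type CD8. All 6 were above the floor in the Foxo1KO arrays, while 3 were under it in wild-type CD4 and 1 in wild-type CD8. Of 9 myeloid markers 2 had one (507 and 387 in Foxo1KO and wild-type CD4, 365 and 136 in Foxo1KO and wild-type CD8). Of 5 natural killer markers 2 had one, and they went different ways. Klrd1 was 13.8-fold lower in CD4 and 4.44-fold lower in CD8, while Nkg7 was higher in CD4, at least 2.61-fold, and had 9920 in Foxo1KO and 9924 in wild-type CD8. The natural killer sums were 291 and 1391 in Foxo1KO and wild-type CD4 and 12794 and 22676 in Foxo1KO and wild-type CD8. Of 3 regulatory T markers 2 had a symbol, with sums of 1444 and 365 in Foxo1KO and wild-type CD4 and 3947 and 1140 in Foxo1KO and wild-type CD8. The CD8 sums were nearly all Ikzf2, with 3896 in Foxo1KO and 1068 in wild-type, since Foxp3 was under the floor in both CD8 arrays. For 2 of 5 gamma delta T markers the sums were 2775 and 139 in Foxo1KO and wild-type CD4 and 1338 and 88.5 in Foxo1KO and wild-type CD8. The CD4 sums were nearly all Cd163l1, with 2746 in Foxo1KO and 130 in wild-type, since Trgv1 was under the floor in both CD4 arrays. In wild-type CD8 both markers were under the floor. None of 5 platelet markers had a symbol. The part of these cells in the lower Itga4, Itga6 and Actn1 values was not tested, and in bulk RNA fewer cells that express a gene and less RNA per cell cannot be told apart.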

How the data were processed

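Per the labels' protocols, 0.5 ug of T cell RNA was turned into biotin-labelled cRNA for Affymetrix arrays. The authors deposited a table with a linear intensity for every probe set on each array. Its summary and scaling methods are not stated in the labels or headers. The tables the authors deposited per cell type hold the ratio of Foxo1KO to wild-type, both intensities (raw, per the file headers) and a symbol.

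Of 45101 probe sets, 64 controls were left out. Symbols came from the authors' tables, with 56 of 660 updated through RefSeq synonyms (GRCm38.p6). Intensities were used on the log2 scale, without scaling, with the median as floor. Genes are described by their brightest named probe set. The cell type term was fitted with limma 3.58.1 (R 4.3.3), two-sided with Benjamini-Hochberg adjustment, on log2 values without a floor for probe sets at or above it in at least 1 array. Other steps used Python 3.11.15, numpy 2.4.6, pandas 2.3.3 and matplotlib 3.10.9.

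The fit was tested on simulated data of 25375 probe sets whose noise depended on mean intensity alone. There it recovered 0% of 100 probe sets changed by a log2 value of 1 or 3, and with the mean-dependent and robust prior 61% and 99%, with 44 calls among unchanged ones. Named were all probe sets of the 3 members, Foxo1, the listed genes of 4 lists on integrins, homing, actin linkers and integrin signalling, and the 3 nearest genes per member. Members and lists were chosen with earlier results of these data known. Alternatives were other floors, scalings, probe set summaries, priors and filters, and the authors' ratios.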

Additional observations from a re-analysis of the deposited data

How the results depend on the processing

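No paired analysis was possible because each group has 1 array and the labels give no replicate numbers. Of 82 recomputed log2 differences of the 3 genes at their brightest probe sets, 81 kept their sign and 76 moved by less than the spread between probe sets. The one that turned was the CD8 minus CD4 genotype difference of Itga4, at 0.12 with the authors' ratios. Many of the 82 could not move, so the counts do not measure how stable the values are. The floor at the 25th percentile changed none of them, and the floor at the 75th only those using the Foxo1KO CD8 value of Itga6. Itga6 has 1 named probe set, so its mean over probe sets repeats the value. With the floor at the 75th percentile of intensities, which lies above the Foxo1KO CD8 value of Itga6, that gene's difference was -1.26 in CD8, its Foxo1KO CD8 over CD4 difference -1.18 and its CD8 minus CD4 genotype difference -0.66, all bounds by construction. With the mean over the Actn1 probe sets, 2 of them at the floor in CD8, its difference was -1.51 in CD8, its wild-type CD8 over CD4 difference -0.60 and its CD8 minus CD4 genotype difference -0.086. None of the alternatives tried brought the cell type term of a brightest probe set past the threshold, with limma adjusted p from 0.104 to 0.832. The background counts depended on the floor, since a lower one admits more dim probe sets. Counting probe sets past 2-fold with the floor at the 25th and 75th percentile, 1860 and 85 were higher and 2284 and 94 lower in Foxo1KO CD4, and 1630 and 92 higher and 3043 and 125 lower in Foxo1KO CD8. For CD8 over CD4 they were 1772 and 156 higher and 2738 and 154 lower in Foxo1KO, and 2492 and 164 higher and 2533 and 109 lower in wild-type. Centring on array medians gave 561 higher in Foxo1KO CD8.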
